A study of Homo sapiens with 6 samples.

Results

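The genes described here are 29 genes of cholesterol synthesis, sterol transport and storage, and control of the transcription factor SREBP2, out of 78304 genes listed in the deposited table. They were taken by symbol from a given list, and each symbol matched 1 row. A gene was tested when it averaged at least 1 TPM (an abundance per transcript length scaled to the same sum in every library) over all 6 libraries, which 28 of the 29 did. INSIG1 did not. Other genes of the pathway are not analysed here except where named.

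Cholesterol is built from acetyl-CoA. The early steps make mevalonate and from it isoprenoid diphosphates, which also feed the prenylation of proteins and the making of dolichol and ubiquinone. The later steps join farnesyl units into squalene, close the ring to give lanosterol, and trim lanosterol to cholesterol. When sterol in the endoplasmic reticulum is low, SCAP escorts SREBP2 to the Golgi, where a pair of proteases release its active part, which switches on genes of synthesis and uptake. When sterol is high, INSIG proteins hold SCAP and SREBP2 back. The liver is a main site of both synthesis and uptake.

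The cells were Huh7, a long-used line derived from a human liver carcinoma, with wild type as the labelled genotype. They were seeded for 24 h and then given 16'-DEC or its vehicle DMSO for 24 h, and poly(A) RNA was sequenced from 3 libraries of each group. The study set out to learn how 16'-DEC acts against liver cancer cells. The labels give no dose and name the compound by its code alone. Nothing in the labels says that the libraries came from separate cultures, and p-values reflect the spread among these 6 libraries, which may be technical. In RNA from whole cultures, a change in all cells and a change in the mix of cells cannot be told apart.

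All 10 hepatocyte and hepatoma markers checked were present in every library, at 41.3 to 13295 TPM. The groups did not overlap for 8 of the 10, near the 75.3% of all tested genes without overlap. AFP averaged 965 ± 120 TPM in 16'-DEC and 2721 ± 184 TPM in DMSO, and KRT8 1880 ± 48.6 TPM in 16'-DEC and 970 ± 91.4 TPM in DMSO. EPCAM, an epithelial marker, averaged 182 ± 8.0 TPM in 16'-DEC and 546 ± 39.6 TPM in DMSO. The part of such shifts in the results was not tested. Markers of leukocytes, fibroblasts, endothelium and muscle summed to 0.573 to 0.948 TPM in 16'-DEC libraries and 0.826 to 2.17 TPM in DMSO libraries over 6 genes, and 1 of these, PTPRC, was at 1.17 TPM in DMSO replicate 3 only. TPM keep no absolute depth. Steps between low values put the reads behind 1 TPM at 1.46 to 1.59 times those of DMSO replicate 1 in 16'-DEC libraries, and at 0.934 and 1.26 times in the other DMSO libraries. Pearson's r across genes on the log2 scale was 0.99 to 0.994 within 16'-DEC, 0.982 to 0.989 within DMSO, and 0.898 to 0.922 for pairs from different groups.

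Most enzymes of cholesterol synthesis rose with 16'-DEC, while genes at several single steps fell. Of the 28 tested genes, 15 rose and 10 fell, and SQLE, CYP51A1 and MBTPS1 did not pass (limma on log2(TPM + 1), Benjamini-Hochberg adjusted p under 0.05, here and wherever an adjusted p is given). Over all 14275 tested genes 71.5% were called, 22.7% as higher and 48.9% as lower. At least 2-fold on this scale, 7 of the genes rose (2.63% of tested genes did) and 4 fell (23.7% of tested genes did). The groups did not overlap for 25 of the 28, against 75.3% of all tested genes. The median log2 change was 0.37 for the 28 genes and -0.31 for all tested genes.

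These changes went with the GC content of the transcripts, as they did across all genes. Across the 28 genes Spearman's rho between GC content and log2 change was 0.715, and across the 13291 tested genes with a GC value it was 0.680. The points share the same 6 libraries and are not independent replicates. The 15 genes that rose had a median GC content of 58.1%, and the 10 that fell 39.7%. The part of GC content in each change was not tested, but the changes of the 28 genes are given below also after a smooth trend on GC content and transcript length was removed from each library, which re-centres the libraries too (called GC-adjusted). GC-adjusted, 24 of the 28 genes were higher and 3 lower, where 34.5% of tested genes were higher, 31.7% lower and 66.2% called in all. All 15 genes that rose were still called higher, and 7 of the 10 that fell were called higher. With the mean of each library kept in the same adjustment, only HMGCS1 (0.37) and INSIG2 (0.15) of those 7 were called higher. IDI1 (-0.11), GGPS1 (-0.07), SC5D (-0.16), STARD4 (0.08) and SOAT1 (0.17) did not pass there. Nor did PMVK, LSS, TM7SF2, SREBF2 and SCAP among the genes that rose.

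**Figure D1:**
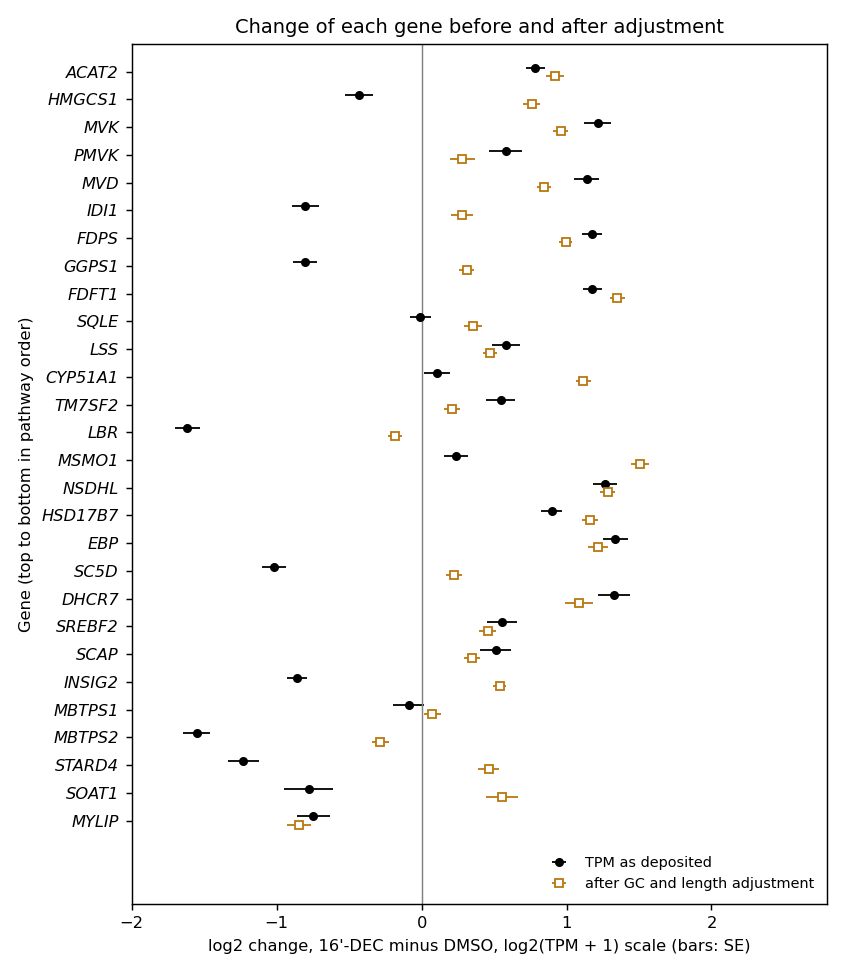
Log2 change of each of the 28 tested genes on the log2(TPM + 1) scale, 16'-DEC minus DMSO, with bars for the SE, from TPM as deposited (filled circles) and after the GC and length adjustment (open squares). Genes run from the first step of synthesis at the top to transport and storage at the bottom. LBR, MBTPS2 and MYLIP were below 0 in both, and HMGCS1, IDI1, GGPS1, SC5D, INSIG2, STARD4 and SOAT1 lay below 0 as deposited and above 0 after adjustment, as did SQLE and MBTPS1, which did not pass as deposited.

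The mevalonate and isoprenoid steps split into 5 enzymes that rose and 3 that fell. ACAT2, the thiolase that joins acetyl-CoA units (ENSG00000120437, chromosome 6, 159760328 to 159779055; GRCh38, GENCODE 29, as for all gene positions), stood at 368, 401 and 383 TPM in 16'-DEC libraries and at 216, 221 and 231 TPM in DMSO libraries. All 3 treated libraries were above all 3 controls, and the change was 0.78 ± 0.0662 on the log2 scale (± SE, adjusted p = 7.96e-06; GC-adjusted 0.92). ACAT2 shares 397 exon bases on the opposite strand with TCP1, a chaperonin subunit that averaged 304 TPM in 16'-DEC and 284 TPM in DMSO. On that strand it also shares 1309 with SOD2-OT1 (0.670 TPM in 16'-DEC and 0.694 TPM in DMSO). A further 1106 are shared with an entry of SOD2 for which no level was found. The level of ACAT2 is therefore uncertain. HMGCS1, the synthase that makes HMG-CoA from ACAT2's product and a classic SREBP2 target, went the other way. It stood at 150, 176 and 137 TPM in 16'-DEC libraries against 215, 204 and 204 TPM in DMSO libraries. The groups did not overlap and the change was -0.43 ± 0.0954 (adjusted p = 0.00299). That direction depended on the processing: HMGCS1 was at 0.76 GC-adjusted (adjusted p = 2.94e-05), and at 0.09 with median-of-ratios scaling (adjusted p = 0.329).

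The 3 enzymes that turn mevalonate into isopentenyl diphosphate all rose. MVK, mevalonate kinase, stood at 74.7, 73.5 and 72.3 TPM in 16'-DEC libraries and at 27.9, 34.8 and 31.0 TPM in DMSO libraries. The treated libraries lay close together and far above the controls (change 1.21 ± 0.0907, adjusted p = 3.71e-06; GC-adjusted 0.96). In GENCODE 29, MVK shares 225 exon bases on the opposite strand with MMAB, a gene of cobalamin metabolism, which averaged 45.6 TPM in 16'-DEC and 30.5 TPM in DMSO. No strand marking is described for these libraries, so reads there cannot be told apart. PMVK, the kinase that follows MVK, was the lowest of the synthesis enzymes, at 18.9, 16.3 and 20.9 TPM in 16'-DEC libraries and 10.9, 12.1 and 13.3 TPM in DMSO libraries. It rose by 0.58 ± 0.114 (adjusted p = 0.00153; GC-adjusted 0.28). MVD, which decarboxylates the product, stood at 126, 123 and 133 TPM in 16'-DEC libraries and at 52.1, 63.4 and 56.8 TPM in DMSO libraries, a change of 1.14 ± 0.0872 (adjusted p = 4.32e-06; GC-adjusted 0.85).

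The next steps diverged again. IDI1, the isomerase that supplies dimethylallyl diphosphate, stood at 150, 175 and 157 TPM in 16'-DEC libraries against 297, 295 and 252 TPM in DMSO libraries. It fell by 0.80 (± 0.0912 SE, adjusted p = 5.25e-05). GC-adjusted it was higher, at 0.28 (adjusted p = 0.013), but with library means kept it was at -0.11 and did not pass. FDPS, farnesyl diphosphate synthase, was the most abundant of the 29 genes in both groups. It stood at 1018, 977 and 1006 TPM in 16'-DEC libraries and at 410, 450 and 469 TPM in DMSO libraries. No treated library came near a control, and the change was 1.17 ± 0.0698 (adjusted p = 9.93e-07; GC-adjusted 0.99). GGPS1, which extends farnesyl to geranylgeranyl diphosphate for protein prenylation, stood at 27.9, 31.4 and 28.1 TPM in 16'-DEC libraries against 53.4, 52.6 and 48.5 TPM in DMSO libraries. It fell by 0.80 (± 0.0826 SE, adjusted p = 2.84e-05). GC-adjusted it was higher, at 0.31 (adjusted p = 0.00131), but with library means kept it was at -0.07 and did not pass. GGPS1 shares 138 exon bases on the opposite strand with ARID4B, which averaged 3.91 TPM in 16'-DEC and 21.1 TPM in DMSO. It also shares 336 on the same strand with TBCE (5.33 TPM in 16'-DEC and 6.28 TPM in DMSO), so the level of GGPS1 is uncertain. Where the pathway branches at farnesyl diphosphate, the enzymes before and towards squalene, FDPS and FDFT1, were higher and GGPS1 was lower in TPM as deposited.

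**Figure D2:**
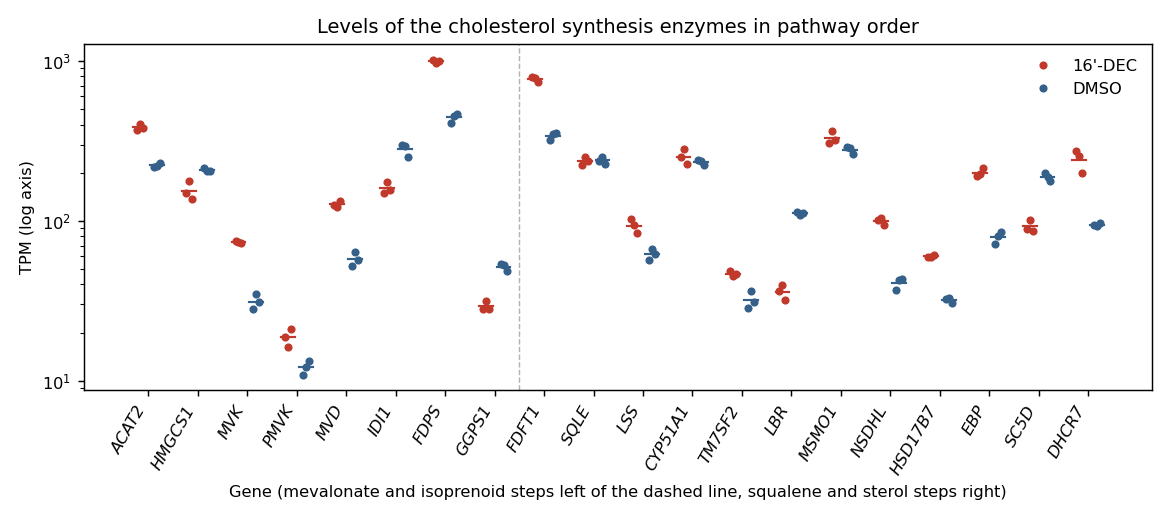
TPM of the 20 synthesis enzymes in each library on a log axis, in pathway order, with 16'-DEC libraries left of DMSO libraries for each gene and short lines at the group means. FDPS and FDFT1 lie highest in both groups and are higher in 16'-DEC, while HMGCS1, IDI1, GGPS1, LBR and SC5D are lower in 16'-DEC. The SQLE and CYP51A1 points of both groups overlap.

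Of the 12 enzymes that make squalene and turn it into cholesterol, 8 rose, LBR and SC5D fell, and SQLE and CYP51A1 did not pass. FDFT1, squalene synthase, the first enzyme committed to sterols, stood at 792, 786 and 744 TPM in 16'-DEC libraries and at 320, 350 and 354 TPM in DMSO libraries. It was second in level to FDPS in every library and rose by 1.18 ± 0.0681 (adjusted p = 8.55e-07; GC-adjusted 1.35). SQLE, squalene epoxidase, a control point of sterol synthesis, did not differ between groups beyond its spread. It stood at 223, 251 and 236 TPM in 16'-DEC libraries and 237, 251 and 228 TPM in DMSO libraries (-0.01 ± 0.0733, adjusted p = 0.914). SQLE was called higher with median-of-ratios scaling (0.52) and GC-adjusted (0.36, adjusted p = 0.00176). LSS, which closes the ring to lanosterol, stood at 102, 93.5 and 84.4 TPM in 16'-DEC libraries and 57.2, 67.0 and 62.0 TPM in DMSO libraries, a change of 0.58 ± 0.0948 (adjusted p = 5.06e-04; GC-adjusted 0.47).

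CYP51A1, the lanosterol demethylase, stood at 249.1, 280 and 226 TPM in 16'-DEC libraries and 240, 236 and 223 TPM in DMSO libraries. The groups overlapped and the change did not pass as deposited (0.11 ± 0.0879, adjusted p = 0.303), but GC-adjusted it did, at 1.12 (adjusted p = 4.43e-06). The gene model AC000120.2, at 7.79 TPM in 16'-DEC and 7.85 TPM in DMSO on average, shares 1685 exon bases with CYP51A1 on the same strand, so the level of CYP51A1 is uncertain. The next reaction, reduction of the sterol ring, can be carried out by either of a pair of related enzymes, and these went opposite ways. TM7SF2 stood at 48.6, 45.0 and 46.6 TPM in 16'-DEC libraries and 28.3, 36.3 and 30.9 TPM in DMSO libraries (0.55 ± 0.099, adjusted p = 9.67e-04; GC-adjusted 0.21). LBR, which is also the lamin B receptor of the inner nuclear membrane, stood at 36.3, 39.5 and 32.0 TPM in 16'-DEC libraries against 114, 109 and 112 TPM in DMSO libraries. It had the largest fall of the 28 genes, by 1.62 (± 0.0884 SE, adjusted p = 6.39e-07), and stayed lower GC-adjusted, at -0.18 (adjusted p = 0.0148). The ratio of TM7SF2 to LBR was 1.34, 1.14 and 1.46 in 16'-DEC libraries and 0.249, 0.332 and 0.276 in DMSO libraries, so in TPM as deposited TM7SF2 was the more abundant of the pair with 16'-DEC and the less abundant with DMSO. TM7SF2 has a GC content of 62.0% and LBR of 37.8%, and most of the shift was gone in the GC-adjusted changes of 0.21 and -0.18.

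Of the enzymes that remove the next methyl groups after CYP51A1 has acted, NSDHL and HSD17B7 rose clearly and MSMO1 narrowly. NSDHL, a sterol dehydrogenase, stood at 100.5, 104 and 94.3 TPM in 16'-DEC libraries and 37.0, 42.5 and 43.0 TPM in DMSO libraries (1.27 ± 0.0841, adjusted p = 1.83e-06; GC-adjusted 1.28). HSD17B7, the ketoreductase that completes the cycle, stood at 59.5, 59.7 and 61.5 TPM in 16'-DEC libraries and 32.6, 32.7 and 30.4 TPM in DMSO libraries (0.90 ± 0.0715, adjusted p = 5.52e-06; GC-adjusted 1.16). The row of its pseudogene HSD17B7P2 was at 6.93 to 7.58 TPM in 16'-DEC libraries and 12.1 to 13.7 TPM in DMSO libraries, so reads may be shared between the copies. MSMO1, the methyl sterol oxidase that opens the cycle, stood at 306, 363 and 318 TPM in 16'-DEC libraries and 288, 287 and 261 TPM in DMSO libraries. The groups did not overlap, and MSMO1 passed only narrowly as deposited (0.24 ± 0.0836, adjusted p = 0.0307). It did not pass without 16'-DEC replicate 2 (adjusted p = 0.111) or without DMSO replicate 3 (adjusted p = 0.0986). GC-adjusted, MSMO1 had the largest rise of the 28 genes, at 1.51 (adjusted p = 3.05e-06).

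In TPM as deposited, the last steps held both the largest rises and 1 fall. EBP, the sterol isomerase, stood at 191, 196 and 213 TPM in 16'-DEC libraries and 71.1, 80.3 and 84.8 TPM in DMSO libraries. With DHCR7 it had the largest rise among the 28 genes in TPM as deposited (1.34 ± 0.0857, adjusted p = 1.52e-06; GC-adjusted 1.22). DHCR7, the reductase that makes cholesterol from its dehydro precursor, stood at 272, 253 and 198 TPM in 16'-DEC libraries and 94.7, 92.8 and 96.4 TPM in DMSO libraries (1.33 ± 0.112, adjusted p = 7.95e-06; GC-adjusted 1.09). Its treated libraries were spread widely, with replicate 3 lowest, and its controls lay close together. SC5D, the desaturase that acts between EBP and DHCR7, stood at 89.3, 101 and 86.8 TPM in 16'-DEC libraries against 199, 188 and 178 TPM in DMSO libraries. It fell by 1.02 (± 0.0831 SE, adjusted p = 6.4e-06). GC-adjusted it was higher, at 0.22 (adjusted p = 0.00805), but with library means kept it was at -0.16 and did not pass.

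Summed over the 20 synthesis enzymes, the level in TPM as deposited was 4403, 4546 and 4278 TPM in 16'-DEC libraries and 3002, 3105 and 3009 TPM in DMSO libraries, a ratio of means of 1.45. The sums were not made with other scalings. The median log2 change of these 20 genes was 0.58 as deposited, 1.09 with median-of-ratios scaling and 0.88 GC-adjusted. FDPS and FDFT1 made up 40.3% ± 1.29 of this sum in 16'-DEC and 25.8% ± 1.51 in DMSO (mean ± SD, 3 libraries each). Without them the sums averaged 2635 ± 132 TPM in 16'-DEC and 2254 ± 61.9 TPM in DMSO, a ratio of 1.17. The order of levels in TPM as deposited also changed. After FDPS and FDFT1, the order by mean level was ACAT2, MSMO1 and CYP51A1 in 16'-DEC, and IDI1, MSMO1 and SQLE in DMSO. In DMSO, IDI1 (281 ± 25.2 TPM) and MSMO1 (279 ± 15.1 TPM) lay within their spread of each other. So did SQLE (238 ± 11.8 TPM) and CYP51A1 (233 ± 8.83 TPM) in DMSO. The same held for CYP51A1 (252 ± 27.3 TPM), DHCR7 (241 ± 38.3 TPM) and SQLE (237 ± 13.8 TPM) in 16'-DEC.

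Of the genes that control SREBP2, 2 of the 5 tested rose, 2 fell and 1 did not pass. SREBF2, which encodes SREBP2 itself (ENSG00000198911, chromosome 22, 41833079 to 41907308), stood at 115, 106 and 86.5 TPM in 16'-DEC libraries and at 69.5, 69.8 and 67.6 TPM in DMSO libraries. The groups did not overlap and SREBF2 rose by 0.56 ± 0.105 (adjusted p = 0.00124; GC-adjusted 0.46, or 0.07 and not passing with library means kept). SCAP, its escort and sterol sensor, stood at 33.5, 30.1 and 26.5 TPM in 16'-DEC libraries and 18.9, 22.5 and 20.8 TPM in DMSO libraries (0.51 ± 0.107, adjusted p = 0.00223; GC-adjusted 0.35). INSIG2, which retains SCAP in the endoplasmic reticulum, stood at 101, 105 and 103 TPM in 16'-DEC libraries against 192, 193 and 177 TPM in DMSO libraries. It fell by 0.86 (± 0.0681 SE, adjusted p = 5.33e-06), but GC-adjusted it was higher, at 0.54 (adjusted p = 3.83e-05). The ratio of SCAP to INSIG2 was 0.334, 0.288 and 0.259 in 16'-DEC libraries and 0.0987, 0.117 and 0.118 in DMSO libraries, so it was higher in every treated library, on TPM as deposited. GC-adjusted, the change of INSIG2 (0.54) was above that of SCAP (0.35), which turns the direction of this ratio.

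INSIG1, the other retention protein and itself an SREBP2 target, was listed at 0.043, 0.067 and 0.061 TPM in 16'-DEC libraries and at 0.072, 0.046 and 1.59 TPM in DMSO libraries. DMSO replicate 3 alone stood apart, and no test was made. No exon of another gene overlaps INSIG1 in GENCODE 29, but the annotation behind the deposited table is not given in the sources used here and lists more genes. The source of the low values was not tested.

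The proteases that release SREBP2 in turn also differed. MBTPS1, which makes the first cut, stood at 48.7, 51.0 and 38.8 TPM in 16'-DEC libraries and 46.2, 49.96 and 50.6 TPM in DMSO libraries, and did not pass (-0.09 ± 0.108, adjusted p = 0.476; GC-adjusted 0.07). Its call depended on the scaling: it was higher with median-of-ratios scaling (0.43, adjusted p = 0.00131) and lower GC-adjusted with library means kept (-0.31, adjusted p = 0.00872). It was also above 0 without 16'-DEC replicate 3 (0.027, adjusted p = 0.754). MBTPS2, which makes the second cut inside the membrane, stood at 6.49, 6.11 and 5.24 TPM in 16'-DEC libraries against 19.7, 19.01 and 19.2 TPM in DMSO libraries. It fell by 1.55 (± 0.0961 SE, adjusted p = 1.24e-06) and stayed lower GC-adjusted (-0.28, adjusted p = 0.00321). MBTPS2 shares 1093 exon bases on the same strand with YY2, which averaged 0.502 TPM in 16'-DEC and 1.80 TPM in DMSO, so its level is uncertain. In TPM as deposited, MBTPS1 was 7.501, 8.35 and 7.41 times as abundant as MBTPS2 in 16'-DEC libraries and 2.34, 2.63 and 2.64 times in DMSO libraries. MBTPS1 has a GC content of 50.9% and MBTPS2 of 39.8%. Most of this shift was gone in the GC-adjusted changes of 0.07 and -0.28.

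**Figure D3:**
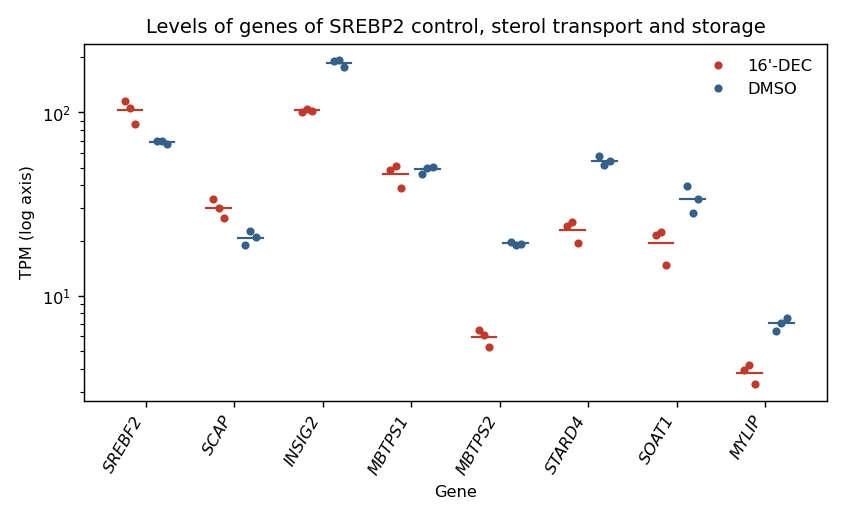
TPM of the 8 tested genes of SREBP2 control, sterol transport and storage in each library on a log axis, with 16'-DEC libraries left of DMSO libraries and short lines at the group means. SREBF2 and SCAP are higher in 16'-DEC, MBTPS1 overlaps between groups, and the other 5 genes are lower in 16'-DEC.

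SREBP2 is known to bind sterol regulatory elements together with NF-Y, a factor that binds CCAAT boxes, so promoters were searched for these letters. RefSeq promoters (250 bases before to 50 bases after the start, GRCh38.p14) matched 26 of the 29 genes by symbol; ACAT2, FDFT1 and SQLE were not matched. CCAAT, on either strand, was present for 19 of the 26 genes (73.1%), against 34.6% of all 35116 promoters and 43.4% of symbols of tested genes. It was held by 11 of the 13 matched genes that rose and by 7 of the 10 that fell, in TPM as deposited. GC-adjusted, 7 of those 10 were called higher. Of the 3 that stayed lower (LBR, MBTPS2 and MYLIP), MYLIP alone held it. TCACNCCAC, a form of the sterol regulatory element, was found for SREBF2 alone (3.85% of the 26, against 1.13% of all promoters and 1.47% of symbols of tested genes). TCACGCCAC was found for none (0.142% of promoters and 0.29% of symbols of tested genes). Other forms of the element were not searched for, so genes without a match may hold one. The E-box CACGTG was found for LSS, SC5D, SCAP and INSIG1 (15.4% of the 26, against 7.26% of promoters and 12.7% of symbols of tested genes). TCACNCCAC and TCACGCCAC overlap in what they match, and a match is a description of letters and not a bound site.

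The counts of genes above took a match in any listed promoter of a gene. The sequences below are from its first listed promoter. The 200 bases before the start are shown for SREBF2, which holds both motifs, and for FDPS and EBP, which rose. They are also shown for HMGCS1 and STARD4, which fell as deposited, and for LBR, which fell and holds no CCAAT in this window. They read 5′ to 3′ on the gene's strand, and capitals mark CCAAT, its reverse complement ATTGG, and TCACNCCAC.
SREBF2 (chr22:41832905-41833104, plus strand): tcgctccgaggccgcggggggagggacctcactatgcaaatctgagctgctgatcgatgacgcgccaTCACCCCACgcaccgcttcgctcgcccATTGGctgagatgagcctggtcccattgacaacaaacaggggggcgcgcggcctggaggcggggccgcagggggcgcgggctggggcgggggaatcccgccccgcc
FDPS (chr1:155308666-155308865, plus strand): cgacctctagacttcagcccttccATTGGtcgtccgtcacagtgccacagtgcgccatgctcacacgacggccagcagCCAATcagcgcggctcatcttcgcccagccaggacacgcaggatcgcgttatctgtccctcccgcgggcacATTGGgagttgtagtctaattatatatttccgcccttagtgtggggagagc
EBP (chrX:48521608-48521807, plus strand): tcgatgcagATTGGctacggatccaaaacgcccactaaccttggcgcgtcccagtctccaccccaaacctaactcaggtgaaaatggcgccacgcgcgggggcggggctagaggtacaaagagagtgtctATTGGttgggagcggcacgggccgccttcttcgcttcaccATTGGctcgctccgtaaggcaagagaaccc
HMGCS1 (chr5:43313413-43313612, minus strand): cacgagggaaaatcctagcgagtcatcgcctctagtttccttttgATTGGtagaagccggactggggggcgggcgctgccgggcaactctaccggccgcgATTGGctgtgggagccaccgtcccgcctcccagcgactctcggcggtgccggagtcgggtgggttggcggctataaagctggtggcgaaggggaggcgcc
STARD4 (chr5:111512536-111512735, minus strand): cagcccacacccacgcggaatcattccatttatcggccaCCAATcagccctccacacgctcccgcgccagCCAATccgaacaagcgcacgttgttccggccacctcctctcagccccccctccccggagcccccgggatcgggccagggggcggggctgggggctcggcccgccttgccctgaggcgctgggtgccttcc
LBR (chr1:225428822-225429021, minus strand): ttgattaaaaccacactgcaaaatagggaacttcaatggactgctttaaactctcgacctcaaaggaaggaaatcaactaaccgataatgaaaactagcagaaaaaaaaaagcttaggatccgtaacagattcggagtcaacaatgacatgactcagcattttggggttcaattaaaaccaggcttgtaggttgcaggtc

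In SREBF2 the sterol regulatory element form starts 133 bases before the start and the inverted CCAAT box 106 bases before it. FDPS and EBP hold 3 CCAAT boxes each in this window, and HMGCS1 and STARD4 hold 2 each. In TPM as deposited, genes with several boxes were thus found among those that rose and among those that fell. GC-adjusted, HMGCS1 (0.76) and STARD4 (0.46) were called higher.

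All 3 genes of transport, storage and receptor turnover fell in TPM as deposited. STARD4, a cytosolic sterol carrier and known SREBP2 target, stood at 24.0, 25.3 and 19.3 TPM in 16'-DEC libraries against 57.9, 51.7 and 54.4 TPM in DMSO libraries (-1.23 ± 0.108, adjusted p = 1.03e-05). GC-adjusted it was higher, at 0.46 (adjusted p = 8.74e-04), but with library means kept it was at 0.08 and did not pass. STARD4 had the lowest GC content of the 29 genes, 34.2%. Its antisense partner STARD4-AS1, which shares 124 exon bases with it, averaged 0.226 TPM in 16'-DEC and 2.77 TPM in DMSO. SOAT1, which esterifies cholesterol for storage, stood at 21.4, 22.2 and 14.8 TPM in 16'-DEC libraries against 39.8, 28.3 and 33.6 TPM in DMSO libraries (-0.78 ± 0.169, adjusted p = 0.00269), but was at -0.27 and did not pass with median-of-ratios scaling (adjusted p = 0.115) and was higher GC-adjusted (0.55, adjusted p = 0.00285). With library means kept, SOAT1 was at 0.17 GC-adjusted and did not pass. It had the widest spread between replicates of the 28 genes in both groups.

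MYLIP, a ubiquitin ligase that sends lipoprotein receptors to lysosomes and so lowers uptake, was the least abundant tested gene. It stood at 3.94, 4.21 and 3.29 TPM in 16'-DEC libraries against 6.44, 7.13 and 7.60 TPM in DMSO libraries, with no overlap. The change was -0.75 ± 0.115 (adjusted p = 3.49e-04) and -0.84 GC-adjusted (adjusted p = 8.2e-05), and MYLIP was the gene whose fall was larger after adjustment. With quantile normalization it was at -0.22 and did not pass (adjusted p = 0.0596).

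**Figure D4:**
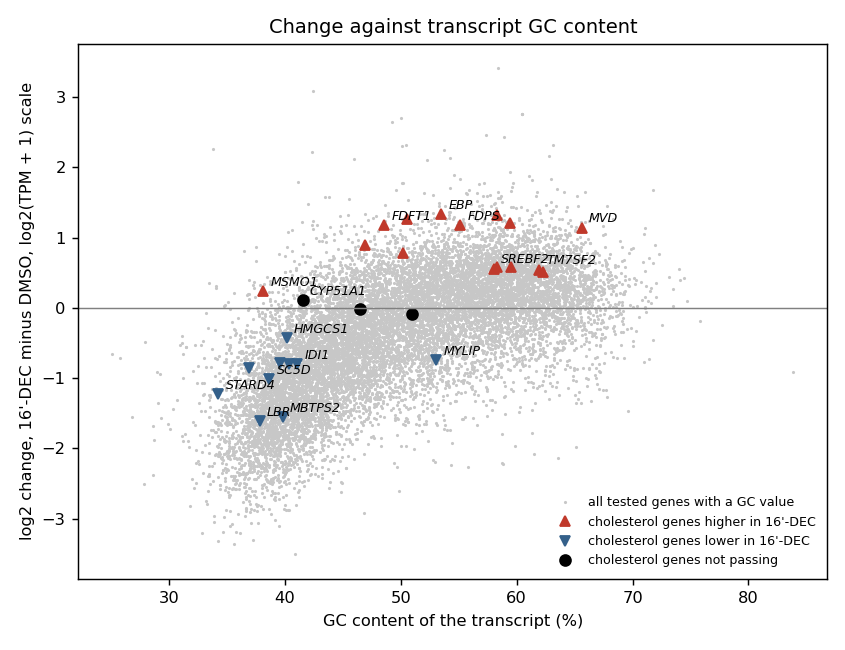
Log2 change on the log2(TPM + 1) scale, 16'-DEC minus DMSO, against the GC content of the transcript for all 13291 tested genes with a GC value (grey) and for the 28 genes of cholesterol metabolism (triangles pointing up for higher, down for lower, circles for not passing). Changes rise with GC content in both, and MSMO1, with a low GC content, and MYLIP, with a moderate one, stand apart from the other cholesterol genes.

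Set against all genes of like GC content, the cholesterol genes had the higher median in each band. Below 40% GC, 7 of these genes had a median change of -1.02 (1 rose, 6 fell), and 1968 tested genes a median of -1.46 (1.07% higher, 93.4% lower). From 40% to 50%, 7 genes had a median of -0.01 (2 rose, 3 fell), against -0.62 for 5154 tested genes (10.2% higher, 66.4% lower). From 50% to 60%, 11 genes had a median of 0.78 (9 rose, 1 fell), against 0.14 for 4160 tested genes (39.8% higher, 22.2% lower). At 60% and above, MVD, TM7SF2 and SCAP all rose, with a median of 0.55 against 0.27 for 2009 tested genes (46.9% higher, 12.6% lower). These medians are descriptions and were not tested.

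Scaling moved all values. With median-of-ratios scaling the median of all tested genes was at 0.13 in place of -0.31. With it, 18 of the 28 genes were higher and 8 lower, against 43.5% and 32.4% of all tested genes (75.8% called in all). With quantile normalization 15 were higher and 9 lower, against 42.0% and 33.3% of tested genes (75.2% in all). GC-adjusted with the mean of each library kept, 13 were higher and 4 lower, against 13.5% and 57.8% of tested genes (71.3% in all). ACAT2, MVK, MVD, FDPS, FDFT1, NSDHL, HSD17B7, EBP and DHCR7 were among the 13, while 5 genes that rose as deposited did not pass there. These were SREBF2 at 0.07 (adjusted p = 0.434), LSS at 0.09 (adjusted p = 0.26), PMVK at -0.11, TM7SF2 at -0.18 and SCAP at -0.04.

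The spread between replicates was modest. The median coefficient of variation of the 28 genes was 8.76% in 16'-DEC and 5.52% in DMSO, and over all tested genes it was 9.96% and 8.37% for the same groups. 16'-DEC replicate 3 was below both other treated libraries for 16 of the 28 genes, among them DHCR7, SREBF2, SCAP and MBTPS1, against 57.9% of all tested genes.

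Genes around the pathway moved in both directions. Of 47 tested genes of isoprenoid use, sterol transport and SREBP control, 17 were higher and 16 lower by the test, and the median change over the list was 0.01, where 22.7% of all tested genes were higher and 48.9% lower. These counts depended on the scaling, as given for each list. Among 14 enzymes that use isoprenoids, 4 rose and 6 fell, but GC-adjusted 9 were higher and 4 lower, and with median-of-ratios scaling 8 and 6. DHDDS, a subunit of the enzyme that makes dolichol chains, rose by 0.60 and FNTB, the beta subunit of farnesyltransferase, by 0.36. RABGGTB, a subunit of the enzyme that prenylates RAB proteins, averaged 83.2 ± 2.61 TPM in 16'-DEC and 231 ± 12.8 TPM in DMSO (-1.46, adjusted p = 3.6e-07; GC-adjusted -0.21). PGGT1B, a subunit of an enzyme that prenylates small GTPases, fell by 1.16 and ZMPSTE24, a protease that trims prenylated proteins, by 1.13, but GC-adjusted they were at 0.59 and 0.23.

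Among 14 tested genes of uptake and intracellular transport, 8 rose and 2 fell. At a threshold of 0.01 these were 5 and 1, and GC-adjusted with library means kept 4 were higher and 6 lower. NPC2 and NPC1, which pass cholesterol out of lysosomes, both rose. NPC2 averaged 391 ± 18.9 TPM in 16'-DEC and 227 ± 7.91 TPM in DMSO (0.78, adjusted p = 9.05e-06), and NPC1 83.1 ± 9.4 TPM in 16'-DEC and 56.1 ± 2.14 TPM in DMSO (0.55, adjusted p = 6.76e-04). TMEM97, a sterol-regulated binding partner of NPC1, rose by 0.47 (adjusted p = 2.69e-04; GC-adjusted 0.86). VLDLR, a lipoprotein receptor, fell by 0.38 (adjusted p = 0.0106), but GC-adjusted it was at 0.59 and with median-of-ratios scaling at 0.12. GRAMD1C, a sterol transfer protein, averaged 0.872 ± 0.47 TPM in 16'-DEC and 3.3 ± 1.17 TPM in DMSO (-1.20, adjusted p = 0.00187), and was at 0.06 GC-adjusted.

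Among 19 genes of sterol sensing, SREBP processing and sterol-regulated degradation, 5 rose and 8 fell, or 5 without DMSO replicate 3. The balance turned with median-of-ratios scaling (11 higher, 3 lower), quantile normalization (9 and 3) and the GC adjustment (12 and 4). ERG28, a scaffold of the sterol demethylation enzymes, averaged 66.9 ± 2.02 TPM in 16'-DEC and 37.7 ± 0.629 TPM in DMSO (0.81, adjusted p = 8.2e-06). AUP1, which acts in protein degradation at the endoplasmic reticulum, averaged 246 ± 4.96 TPM in 16'-DEC and 134 ± 12.9 TPM in DMSO (0.88, adjusted p = 1.6e-05; GC-adjusted 0.56). NFYB, a subunit of the CCAAT-binding factor NF-Y, had the largest change of these lists. It stood at 10.6, 9.24 and 9.87 TPM in 16'-DEC libraries against 58.8, 55.7 and 52.9 TPM in DMSO libraries (-2.38 ± 0.0849, adjusted p = 1.28e-07; GC-adjusted -0.84). Of the other NF-Y subunits, NFYA was at -0.40 (adjusted p = 0.0264) but at 0.20 GC-adjusted and 0.09 with median-of-ratios scaling, and NFYC was at 0.03 (adjusted p = 0.773) and at 0.55 with median-of-ratios scaling. PAQR3, a Golgi anchor of SCAP, fell by 1.49 (adjusted p = 1.52e-06) but was at 0.21 GC-adjusted, and PGRMC1, a haem-binding partner of CYP51A1, fell by 0.96 (adjusted p = 1.23e-05; GC-adjusted -0.43).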

How the data were processed

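Poly(A) RNA of 6 Huh7 libraries (3 with 16'-DEC, 3 with DMSO, grouped by title) was analysed. The authors deposited 1 table of TPM values per gene. Named in the submitters' processing notes, with neither role nor order, are HISAT2 2.0.1, cutadapt 1.9.1, DESeq2, HTSeq 0.6.1 and GRCh38 as build; for annotation and gene lengths the sources used here give nothing. TPM keep no absolute depth, so counting error is unknown.

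The 14275 genes averaging at least 1 TPM were tested with R 4.3.3 and limma 3.58.1 on log2(TPM + 1) (eBayes with a mean trend, 2-sided, Benjamini-Hochberg over all tested genes, threshold 0.05). The scale understates changes of low genes. The fit was tested on simulated data. GC content and length came from 1 GENCODE 29 transcript per gene, found by identifier for 13291 genes (93.1%); the GC adjustment removed natural splines (5 degrees of freedom each) of both from the deviations of each library. Median-of-ratios scaling used genes above 0 in all 6 libraries. In GENCODE 29, exons of 13 of the 29 genes overlap other genes; 16 of 17 pseudogene rows were under 1 TPM in every library. All members are named; of each list of other pathway genes the rule names up to 3 with the smallest adjusted p in each direction, except that some are not reported here, and NFYA and NFYC were added after their values were seen. Members and lists were chosen with earlier results of these data known. Alternatives were other pseudocounts, filters, scalings, a replicate block, the GC adjustment and leaving out each library. Figures used matplotlib 3.10.9.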

Additional observations from a re-analysis of the deposited data

How the results depend on the processing

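Changing the pseudocount to 0.1 or 5 TPM, the filter, the mean trend or the threshold, adding a replicate block, or leaving out each library kept the counts of the 28 genes between 14 and 15 higher, with 10 lower, and 356 of 364 of their single values on their side of the threshold and in their direction; the exceptions were MSMO1, which did not pass in 5, and SQLE and MBTPS1, which did not pass in any of these settings and changed sign. Without 1 library SQLE ran from -0.052 to 0.032 and MBTPS1 from -0.17 to 0.027. The labels do not say whether the replicate numbers pair the samples. Deviations of libraries with the same number correlated at 0.0941, -0.182 and -0.0726, which cannot settle it with so few libraries. The replicate block gave 3014 genes higher and 6823 lower, against 3236 and 6974 without it, and changed none of the 28 calls.

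Scaling and GC content moved the counts, and the cause was not tested. Over all tested genes median-of-ratios scaling gave 6204 higher and 4621 lower, quantile normalization 5990 higher, the GC adjustment 4213 lower (3982 with the replicate block), and the GC adjustment that keeps the mean of each library, an alternative chosen after seeing the data, 1797 higher. For the 28 genes the GC adjustment gave 24 higher and 3 lower, also with the replicate block, and 4 lower with library means kept. For the 47 other pathway genes median-of-ratios scaling gave 30 higher and 10 lower, quantile normalization 27 and 10, and the GC adjustment 28 and 9, with and without the block. Of the single genes, GC-adjusted values, which are the same with the block, turned for HMGCS1 (0.76), IDI1 (0.28), GGPS1 (0.31), SQLE (0.36), SC5D (0.22), INSIG2 (0.54), MBTPS1 (0.075), STARD4 (0.46), SOAT1 (0.55), ZMPSTE24 (0.23), PGGT1B (0.59), GRAMD1C (0.060), VLDLR (0.59) and PAQR3 (0.21). With library means kept they turned for HMGCS1 (0.37), PMVK (-0.11), TM7SF2 (-0.18), SCAP (-0.038), INSIG2 (0.15), STARD4 (0.076), SOAT1 (0.17), FNTB (-0.090), PGGT1B (0.21) and VLDLR (0.21). Median-of-ratios scaling turned HMGCS1 (0.092), SQLE (0.52), MBTPS1 (0.43) and VLDLR (0.12), and quantile normalization turned SQLE (0.040), MBTPS1 (0.18) and VLDLR (0.073).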
